A study of Canis lupus familiaris with 8 samples.

Results

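GZMK+ IL7R+ GZMB- CD8 T cells of canine blood were singled out by virtual gating on raw transcript counts (unique molecular identifiers, UMIs). A member had at least 1 UMI of CD8A, none of CD4, at least 1 of GZMK, at least 1 of IL7R and none of GZMB. Of 31909 cells that passed quality control, 6427 had CD8A and no CD4 transcript, and 461 of these (7.17%) were members. The remaining 5966 CD8A+ CD4- cells served as the comparison, as a whole and in 3 subclasses set by the same genes, 3931 GZMB+ cells, 1216 GZMK- IL7R+ GZMB- cells and 298 GZMK+ IL7R- GZMB- cells. The remaining 521 cells, without GZMK, IL7R and GZMB, entered only the comparison as a whole. The cells were thus selected on measured counts of CD8A, CD4, GZMK, IL7R and GZMB, and these genes are given as a description only and were not tested. Genes that vary together with GZMK, IL7R or GZMB among CD8 T cells differ between the classes by this choice, so the differences below describe the gated cells and are not independent evidence that they form a separate cell type.

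The cells came from the blood of 4 healthy Beagle dogs under routine vaccination, with 1 gene expression library and 1 receptor (V(D)J) library from each. TCRαβ+ T cells had been sorted by flow cytometry from mononuclear cells, cryopreserved, thawed and loaded for droplet-based 5' sequencing. Ages were 5 years for dog 1, the only female, 7 years for both males numbered 2 and 3, and 9 years for the male numbered 4. Sex could not be tested with 1 female, and age was not tested. The gene expression libraries held 26904346, 35661623, 32637367 and 32773374 UMIs for dogs 1 to 4, and the summed members of each dog held 63097, 545828, 1100891 and 425578 UMIs. Dog 1 contributed only 14 members, so a gene without counts in them may have been present at up to 47.5 CPM (counts scaled to a library sum of 1000000 UMIs; 3 counts, counting error only). The same limit was 5.50, 2.73 and 7.05 CPM in the members of dogs 2, 3 and 4.

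CD8 T cells recognize peptides on MHC class I, and after activation they pass from naive cells that recirculate through lymph nodes into memory and effector cells. Granzymes and perforin are stored in granules and kill the target cell. GZMB is the granzyme of armed killers, whereas GZMK is found in memory cells that can still proliferate. IL7R, the receptor chain for interleukin 7, sustains naive and memory T cells and is switched off in effector cells. CD28 is the receptor through which B7 ligands costimulate a T cell, and EOMES is a T-box transcription factor of memory and effector CD8 T cells.

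The members made up 2.03%, 8.55%, 10.3% and 4.48% of the CD8A+ CD4- cells of dogs 1 to 4, that is 14 of 691, 122 of 1427, 234 of 2280 and 91 of 2029 cells. The exact (Clopper-Pearson) 95% intervals were 1.11 to 3.38%, 7.15 to 10.1%, 9.05 to 11.6% and 3.63 to 5.48%, so dogs 2 and 3 lay above dogs 1 and 4 beyond counting error. When every cell was thinned to 2000 UMIs the shares were 2.65%, 6.55%, 9.70% and 3.35%, in the same order of dogs. Members were slightly deeper than the remaining CD8A+ CD4- cells, with median UMIs of 4279.5, 4481.5, 4546.5 and 4363 against 3932, 3892, 3475 and 3643.5. The share of mitochondrial transcripts was alike, with medians of 2.17%, 1.98%, 2.39% and 1.88% in members and 2.13%, 2.25%, 2.36% and 1.96% in the other cells.

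A member held a median of 4 GZMK, 4 IL7R and 5 CD8A UMIs. Many cells lay near the edge of the gate, since 93 members (20.2%) had a single GZMK UMI, 114 (24.7%) a single IL7R UMI and 61 (13.2%) a single CD8A UMI, while 278 (60.3%) had at least 2 UMIs of both GZMK and IL7R. Just outside lay 131 cells with a single GZMB UMI, 298 without IL7R and 1216 without GZMK. A further 876 had neither a CD8A nor a CD4 UMI, and 51 had a single CD4 UMI. The latter 51 cells had a median of 6259 UMIs, more than the median of 4515 UMIs of the members. GZMK reached 1854, 1455, 1535 and 1231 CPM in the members of dogs 1 to 4 against 378, 774, 769.7 and 577 CPM in the other CD8A+ CD4- cells, and IL7R reached 935, 1255, 973 and 853 CPM against 227, 444, 441 and 283 CPM. CD8A was at 1189, 923, 1181 and 1323 CPM in members and at 1355, 1356, 1654 and 1601 CPM in the other cells. GZMB was at 1297, 1153, 1663 and 1839 CPM in the other cells and at 0 in members, as the gate required.

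Some receptors and barcodes occurred in more than 1 library. Pairs of libraries shared 87 to 120 cell barcodes, but none of these barcodes marked a member in both libraries of a pair. In addition, 54 TCR beta chains (TRB) occurred in both dog 1 and dog 4, in 69 cells of dog 1 and 1060 cells of dog 4. None of the members of dog 1 and 4 members of dog 4 carried one of them. Leaving out the cells of dog 1 with a TRB of another dog, an alternative chosen after seeing the data, left 434 genes called in the comparison with all other CD8A+ CD4- cells in place of 445.

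Markers of the label were then checked in the gated cells. CD28 bore the label out, whereas EOMES was not higher than in the other CD8A+ CD4- cells. CD28 was at 222, 132, 104 and 115 CPM in the members of dogs 1 to 4 and at 30.7, 58.5, 45.2 and 35.9 CPM in the other CD8A+ CD4- cells, without overlap. The means were 143 ± 53.6 and 42.6 ± 12.2 CPM (SD, n = 4), a log2 fold change of 1.46 with a standard error (SE) of 0.13 (adjusted p = 9.2e-26 by edgeR's quasi-likelihood test with Benjamini-Hochberg correction; 1.3e-25 to 0.0033 over its alternatives). By cells, 43.6% ± 9.38 of members had a CD28 UMI against 13.2% ± 3.69 of the other cells, and 24.2% against 6.92% after thinning to 2000 UMIs. EOMES was at 0, 40.3, 53.6 and 49.3 CPM in members and at 43.8, 61.7, 58.9 and 55.5 CPM in the other cells (log2 fold change -0.25, adjusted p = 0.53). The zero of dog 1 lies under its limit of 47.5 CPM. EOMES was detected in 18.9% of members against 0.238% of CD4+ CD8A- CCR7+ LEF1+ cells, a naive-like gate from the same libraries (median 4002 UMIs) that served as background for free RNA.

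Transcripts of other blood cells were rare. NCR1 and KLRF1, the NK cell markers analysed, summed to 0, 3.66, 7.27 and 2.35 CPM in the members of dogs 1 to 4 and to 11.2, 18.8, 16.9 and 18.9 CPM in the other CD8A+ CD4- cells, with NCR1 the most abundant and KLRF1 at 0 in members. The B cell markers CD79B and PAX5 were at 0 in members. Monocyte markers (LYZ, CSF1R, S100A12) reached 0.908 CPM in dog 3 and were at 0 in the other dogs. SOX13 of γδ T cells, PPBP of platelets and ALAS2 and HBM of red cells were at 0 in members. CD14, TRDC, PF4, GP9, HBB and FCGR3A were not analysed here. Of the regulatory T cell markers, FOXP3 was at 0, 7.33, 6.36 and 11.7 CPM in members and IKZF2 at 0, 27.5, 18.2 and 25.8 CPM, and neither passed the test, while CTLA4, the third gene of this list, was higher, with values given among the costimulatory and inhibitory receptors.

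Against all other CD8A+ CD4- cells, the members had less of several granule, killing and chemokine genes and more of some receptors of the CD28 family. The question here was how these cells differ from the bulk of the CD8 compartment, in which 3931 of 5966 cells had GZMB. GZMA, CCL5, CCL4, PRF1 and the integrin chain ITGAM were lower, and CD28, CD40LG, CD52, ICOS, CTLA4 and LTB were higher. UMI counts were summed per dog and class, so n = 4 dogs, and with sums a difference in the number of expressing cells and one in RNA per cell cannot be told apart. Of 8191 genes tested, 219 (2.67%) were higher and 226 (2.76%) lower in members, 445 in all (5.43%). Without the replicate block, which treats the sums of a dog as unpaired, 72 genes passed (30 higher, 42 lower), all of them among the 445, and 240 passed without dog 3 and 225 without dog 4. The edgeR fit pooled the spread over genes, so its SEs are smaller than the spread of single genes between dogs, and limma-voom, added after seeing the data, called 161 genes, 156 of them shared. Comparisons with the subclasses below use the same member sums and are not independent of this one.

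GZMA had the lowest log2 fold change of the named genes. Of 10 granule and killing genes tested, GZMA, PRF1, FASLG, CTSW, CST7 and SLAMF7 were lower and SRGN, the proteoglycan that packs granules, was higher, with a list median of -0.66 on the log2 scale against 0.00 for all genes. GZMA, a granzyme of cytotoxic granules, was at 0, 9.16, 4.54 and 4.70 CPM in the members of dogs 1 to 4 and at 204, 176, 199.7 and 400.2 CPM in the other cells (log2 fold change -5.30, SE 0.22, adjusted p = 2.3e-127). The groups were far apart in every dog, and the member sums rest on 12 GZMA UMIs in 5 cells. That is 1.08% of members with a GZMA UMI, against 0.143% of background cells and 39.0% of GZMB+ cells. PRF1, which forms the pore through which granzymes enter a target, was at 0, 58.6, 51.8 and 72.8 CPM in members and at 95.8, 136, 191 and 223 CPM in the other cells (log2 fold change -1.60, adjusted p = 1.4e-29). FASLG, the death ligand, was at 15.8, 33.0, 49.96 and 75.2 CPM against 61.8, 70.7, 111 and 126 CPM (log2 fold change -0.97, adjusted p = 1.4e-08). Members thus carried PRF1 and FASLG at lower levels than the other cells, in all 4 dogs. In dog 1 the member values rest on no PRF1 UMI and on FASLG in 1 cell. CTSW was lower by a smaller amount (276 ± 50.6 against 389 ± 52.6 CPM, log2 fold change -0.34), and SRGN was at 439 against 375 CPM (log2 fold change 0.29).

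Of 8 chemokine and cytokine genes, CCL5, CCL4 and IL16 were lower and none was higher. CCL5, which draws T cells and monocytes, was at 761, 222, 273 and 388 CPM in members and at 4909.8, 2819, 1212 and 2295 CPM in the other cells (log2 fold change -2.69, SE 0.09; the log2 ratios of the single dogs have an SE of 0.32). CCL4 was at 475, 172, 219.8 and 284 CPM against 651, 852, 859 and 1463 CPM (log2 fold change -1.997). Neither gene overlapped between the classes. CCL5 transcripts were found in 15.2% of members and 3.78% of background cells.

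Killer cell receptors and their adaptors were also mostly lower, with 7 of 11 tested genes lower, 1 higher and a median of -1.23. FCER1G, a signalling adaptor of innate-like lymphocytes, was at 95.1, 109.9, 50.9 and 157 CPM in members and at 277, 459.7, 259.5 and 467 CPM in the other cells (log2 fold change -1.92, adjusted p = 4.4e-63), without overlap. NCR3, an activating natural cytotoxicity receptor, was at 63.4, 33.0, 95.4 and 86.9 CPM against 299, 136, 211 and 239.5 CPM (log2 fold change -1.37). KLRB1, the lectin receptor CD161, was at 127, 84.3, 119 and 219 CPM against 90.4, 192, 454 and 379 CPM (log2 fold change -1.27). Unlike FCER1G and NCR3, KLRB1 overlapped between the classes, was higher in the members of dog 1 and was not called without the replicate block. KLRD1 (CD94) was lower in each dog (254, 306, 578 and 416 against 435, 490.0, 691 and 649 CPM, log2 fold change -0.45), but the classes overlapped and neither the fit without the block nor limma-voom called it. CD226, an adhesion receptor that costimulates killing, was the gene of this list that was higher (139 against 106 CPM, log2 fold change 0.38). CXCR6 and ZBTB16, further innate-like markers, did not pass the test (log2 fold changes -0.19 and 0.41).

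Of 14 costimulatory and inhibitory receptors and ligands, CD28, ICOS, CD40LG, CTLA4 and PVRIG were higher, CD7, PDCD1 and CD38 were lower and 6 did not pass the test (median 0.16). ICOS, an inducible relative of CD28, was at 111, 108, 96.3 and 129 CPM in members and at 45.9, 61.3, 58.6 and 53.3 CPM in the other cells (log2 fold change 0.97, SE 0.13, adjusted p = 1.4e-11). CTLA4, which competes with CD28 for its ligands, was at 111, 86.1, 62.7 and 72.8 CPM against 27.1, 47.4, 43.0 and 26.6 CPM (log2 fold change 0.96). CD40LG, the ligand by which T cells help B cells and dendritic cells, was at 47.5, 71.5, 31.8 and 44.6 CPM against 10.5, 16.5, 15.0 and 10.5 CPM (log2 fold change 1.78, SE 0.22, adjusted p = 3.7e-13). None of ICOS, CTLA4 and CD40LG overlapped between members and other cells. They also stayed called when members of clones with a CD4+ CD8A- cell were left out and when CD8A of at least 3 UMIs was asked of both classes, both alternatives chosen after seeing the data. CD7 was lower (301, 269, 405 and 282 against 447, 453, 337 and 508 CPM, log2 fold change -0.31), though higher in the members of dog 3.

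Among 14 memory and survival genes, CD28, LTB, ICOS and ZFP36L2 were higher and IL2RB was lower (median 0.22). LTB, the membrane lymphotoxin chain that shapes lymphoid tissue, was at 2298, 1477, 1505 and 1504 CPM in members and at 1291, 1051, 894 and 875 CPM in the other cells (log2 fold change 0.74, adjusted p = 2.7e-22), without overlap. IL2RB, the beta chain of the receptors for interleukins 2 and 15, was at 254, 416, 537 and 547 CPM against 623, 806, 871 and 873 CPM (log2 fold change -0.74). Of 9 genes of naive cells and lymph node homing, CCR7 and ID3 were higher and none was lower (median 0.13). CCR7, the chemokine receptor for lymph node entry, was at 79.2, 101, 113 and 56.4 CPM in members and at 64.0, 66.0, 66.4 and 18.9 CPM in the other cells (log2 fold change 0.86, adjusted p = 5.1e-08). It was higher in the members of all 4 dogs, although dog 4 lay low in both classes, so that the classes overlapped and the fit without the block did not call it. LEF1 and TCF7 did not pass the test (log2 fold changes -0.12 and 0.13). Of the genes the study names for central memory cells, CCR7 and CD28 were higher, CD7 was lower and EOMES was neither. That list was drawn up on these samples and is no independent evidence.

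Of 18 transcription factors tested, TBX21 (T-bet), ZEB2 and TOX were lower, MYC was higher and 14 did not pass the test (median -0.00). TBX21, which drives effector genes, was at 63.4, 53.1, 43.6 and 119.8 CPM in members and at 97.3, 118, 199 and 194 CPM in the other cells (log2 fold change -1.35). ZEB2, its partner in terminal effector cells, was at 0, 5.50, 13.6 and 28.2 CPM against 34.7, 42.0, 77.2 and 83.3 CPM (log2 fold change -2.20). TBX21 was lower in every dog and ZEB2 in dogs 2 to 4. The ZEB2 zero of dog 1 lies under its limit of 47.5 CPM, so that dog shows no direction. ZEB2 was not called without the replicate block. MYC, a driver of growth, was at 174, 245, 349.7 and 247 CPM against 184, 187, 202 and 159 CPM (log2 fold change 0.65), higher in dogs 2 to 4 only. KLRG1, a receptor of effector cells, did not pass the test (0.17, adjusted p = 0.49). Of 7 cell cycle genes, MKI67, TOP2A and STMN1 were lower (median -0.29). MKI67, present in cycling cells, was at 15.8, 5.50, 0.908 and 2.35 CPM in members and at 49.5, 45.2, 35.2 and 46.3 CPM in the other cells (log2 fold change -3.76, SE 0.38, adjusted p = 5.1e-21).

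Homing receptors were divided. Of 18 chemokine receptors and integrins, 4 were higher, among them CXCR3, CCR2 and CCR9, and CX3CR1, S1PR5, ITGB7, ITGAE, ITGAL, ITGAM, ITGB2 and ADGRG1 were lower (median -0.15). ITGAM (CD11b), an integrin of effector and myeloid cells, was at 0, 9.16, 6.36 and 47.0 CPM in members and at 86.8, 98.3, 209 and 280.0 CPM in the other cells (log2 fold change -3.57, SE 0.18, adjusted p = 2e-79). CXCR3, which leads T cells to inflamed tissue, was at 15.8, 91.6, 68.1 and 51.7 CPM against 22.8, 39.5, 29.8 and 38.6 CPM (log2 fold change 1.06). CCR9, the receptor for homing to the small intestine, was at 0, 76.9, 80.8 and 72.8 CPM against 30.0, 50.8, 36.7 and 50.9 CPM (log2 fold change 0.84). ITGAM did not overlap between the classes. In dog 1 the members held 1 CXCR3 UMI and none of CCR9, under the limit of 47.5 CPM. That dog thus shows no direction for CXCR3 or CCR9. CCR9 was not called (log2 fold change 0.29) once clones with a CD4+ CD8A- cell were left out.

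Cytokine receptors split likewise, with IL4R, IL6R, IL18R1 and IFNGR1 higher and IL2RB and IL12RB2 lower among 15 tested (median 0.19). IFNGR1, the ligand-binding chain for interferon gamma, was at a mean of 184 against 114 CPM (log2 fold change 0.55) and IL18R1 at 155 against 108 CPM (log2 fold change 0.54). Of 15 T cell receptor signalling genes, LCK, TRAT1, PTPN22 and TXK were lower and none was higher (median -0.23). In early activation genes 1 of 16 was higher (TNFAIP3, 252 against 211 CPM) and 1 lower (ZFP36, 626 against 861 CPM), with a median of 0.02. Of 11 interferon-stimulated genes only TRIM22 was called (408 ± 78.6 against 262 ± 64.8 CPM, log2 fold change 0.65), and none of 6 MHC class II genes was.

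The genes with the largest differences that kept 1 direction in all dogs included several outside these groups. CD52, a small glycoprotein of the lymphocyte surface, was at 111, 191, 139.9 and 122 CPM in members and at 48.5, 47.2, 66.2 and 29.9 CPM in the other cells (log2 fold change 1.63, SE 0.12, adjusted p = 1.1e-36). KRT18, a keratin of simple epithelia, was at 174, 101, 70.9 and 82.2 CPM against 30.7, 37.7, 31.2 and 21.8 CPM (log2 fold change 1.56). GALNT17, a glycosyltransferase, was at 63.4, 56.8, 83.6 and 82.2 CPM against 21.3, 26.0, 42.5 and 23.2 CPM (log2 fold change 1.29). In none of CD52, KRT18 and GALNT17 did the classes overlap. Further genes that were higher were RAB38 (1.81), ANOS1 (1.78), FAM114A1 (1.41), USP13 (1.40), MGAT5 (1.35), RAB25 (1.34) and CCR2 (1.25), each given as a log2 fold change. Of these, RAB38, ANOS1, USP13, MGAT5 and CCR2 were not called without the replicate block. Among the genes that were lower, the fractalkine receptor CX3CR1 was at 10.1 against 38.3 CPM (log2 fold change -2.50) and the histone H1-5 at 2.77 against 34.3 CPM (log2 fold change -3.02), followed by PLEK (-2.21), FGR (-2.03) and CLNK (-2.01). GCSAM was lower too (-3.57), at 4.78 against 21.1 CPM and with 3 UMIs in members. CX3CR1 and PLEK were not called without the block, and limma-voom called neither CX3CR1 nor GCSAM. PLEK and FGR were at 0 in the members of dog 1 against 12.7 and 21.0 CPM in its other cells. These levels lie under the limit of 47.5 CPM, so dog 1 shows no direction for PLEK and FGR.

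**Figure D1:**
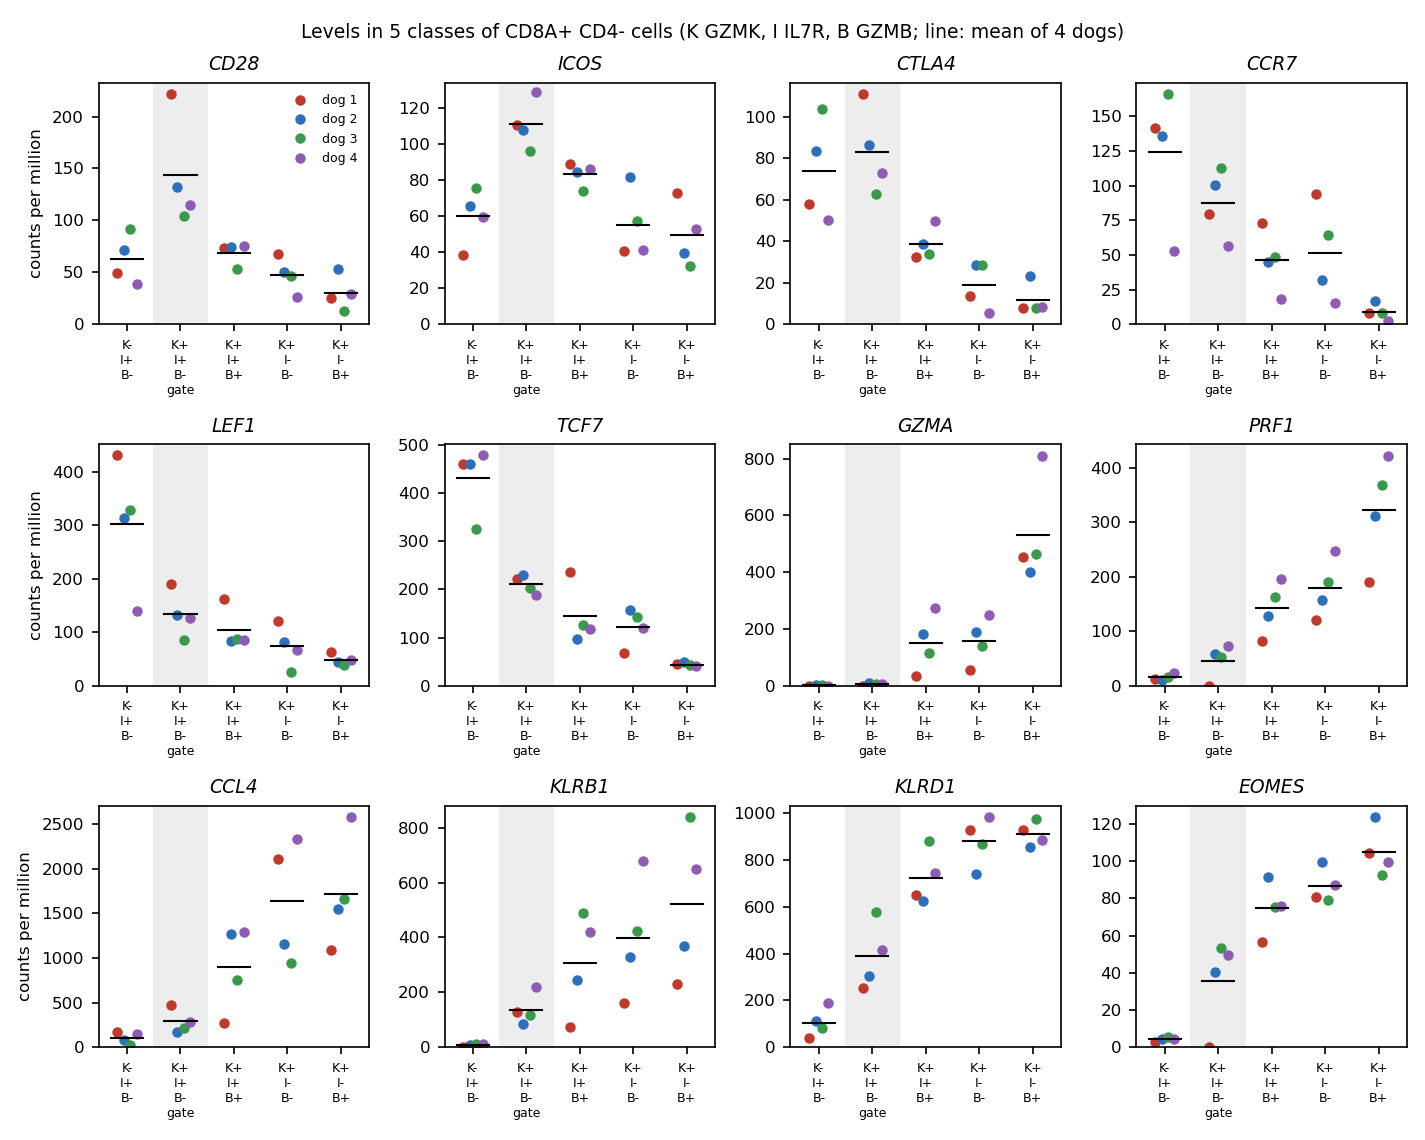
Level in CPM of 12 genes in CD8A+ CD4- cells split by GZMK (K), IL7R (I) and GZMB (B), 1 point per dog and a line at the mean of 4 dogs; the gated members are shaded. CD28 and ICOS have their highest mean in the gate, GZMA is close to 0 in the gate (4.60 CPM), and LEF1, TCF7, PRF1, KLRD1 and EOMES lie between the GZMK- IL7R+ GZMB- cells on the left and the GZMB+ cells on the right.

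Against the GZMB+ cells alone, the question was what sets the members apart from armed effector cells, and here genes of naive and early memory cells stood out. CCR7 and the transcription factors TCF7 and LEF1, which keep T cells undifferentiated, were all higher in members. Of 7515 genes, 426 (5.67%) were higher and 400 (5.32%) lower, 826 in all (11.0%), and 267 without the replicate block, 522 without dog 3 and 545 without dog 4. Of the 9 naive genes, CCR7, LEF1, TCF7, ID3 and SATB1 were higher and 1 was lower (median 0.49 against -0.00 for all genes). CCR7 was at 11.1, 25.2, 26.9 and 6.70 CPM in the GZMB+ cells of dogs 1 to 4 (log2 fold change 2.29, SE 0.17, adjusted p = 4.7e-23). LEF1 was at 55.3, 61.1, 59.9 and 55.6 CPM there (log2 fold change 0.999) and TCF7 at 101, 129.8, 93.8 and 85.1 CPM (log2 fold change 1.09). The members of every dog were above every GZMB+ sum in CCR7, LEF1 and TCF7. ID3, which holds back effector differentiation, was at 48.3 ± 14.2 against 11.0 ± 3.20 CPM (log2 fold change 1.96).

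CD52 was at 13.7, 11.0, 19.4 and 17.3 CPM in GZMB+ cells, a log2 fold change of 3.23 and a ratio of means of 9.19. CD40LG was at 2.60, 11.0, 5.07 and 4.87 CPM (log2 fold change 2.91), and CD28 at 20.8, 53.4, 32.3 and 36.8 CPM (log2 fold change 1.72). Members lay above GZMB+ cells in CD52, CD40LG and CD28 in all dogs. RAB25 (2.65), RAB38 (2.62), MGAT5 (2.48), and USP13 (2.43) followed on the log2 scale. On the other side GZMA was at 361, 282, 279 and 598 CPM in GZMB+ cells (log2 fold change -5.86). It was followed by CENPF (-5.10), RRM2 (-4.16), MKI67 (-4.11) and ITGAM (-4.04). CENPF and RRM2, genes of dividing cells, were at 21.1 and 23.4 CPM in GZMB+ cells and rested on 1 and 2 UMIs in members. EOMES was lower in members than in GZMB+ cells, at 73.5, 92.1, 77.4 and 75.3 CPM in the latter (log2 fold change -0.71, adjusted p = 0.00057), but limma-voom did not call it. By group, 6 of 10 cytotoxic genes were lower and 2 higher (median -0.93), 7 of 11 killer receptors lower and none higher (median -1.34), 4 of 7 chemokines and cytokines lower (CCL4, CCL5, TGFB1 and IL16), and 7 of 15 T cell receptor signalling genes lower.

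The GZMK- IL7R+ GZMB- cells differ from the members in the gate only by GZMK, and in this comparison the direction of many genes turned. Members had more of several killer receptors, PRF1 and FASLG, and less LEF1 and TCF7. Of 6919 genes, 105 (1.52%) were higher and 57 (0.824%) lower, 162 in all (2.34%), and 65 without the replicate block and 99 without dog 2. Of 11 killer receptor genes, KLRK1, KLRD1, KLRB1, KLRG1, CD226 and HCST were higher and FCER1G and CD96 lower (median 0.67 against -0.01 for all genes). KLRB1 was at 1.38, 7.35, 10.7 and 11.3 CPM in the GZMK- cells against 127, 84.3, 119 and 219 CPM in members (log2 fold change 3.92, SE 0.22, adjusted p = 2.2e-14). KLRG1 was at 17.9, 26.3, 56.9 and 42.7 CPM against 95.1, 106, 157 and 211 CPM (log2 fold change 1.91). Neither KLRB1 nor KLRG1 overlapped, and KLRB1 transcripts were found in 24.3% of members and 0.737% of background cells.

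KLRD1 was at 39.9, 111, 80.0 and 189.7 CPM in the GZMK- cells (log2 fold change 1.90), without overlap but not called by limma-voom. Of 9 cytotoxic genes, PRF1, FASLG and SLAMF7 were higher and none was lower (median 0.15). FASLG was at 4.13, 6.13, 15.4 and 8.17 CPM in the GZMK- cells (log2 fold change 2.33, adjusted p = 1e-06). That is below the members in dogs 2 to 4, and by a factor of 5.14 in the means. In dog 1 only 1 member held FASLG, under the limit of 47.5 CPM, so that dog shows no direction. PRF1 was at 12.4, 9.80, 15.4 and 22.6 CPM (log2 fold change 1.87) and TBX21 at 16.5, 22.1, 19.6 and 32.7 CPM (log2 fold change 1.51). TBX21 did not overlap, while PRF1 was at 0 in the 14 members of dog 1. GZMA was at 0, 0.613, 1.19 and 0 CPM in the GZMK- cells, so that this granzyme was near 0 in both classes. EOMES was at 2.75, 4.29, 5.34 and 4.40 CPM there against 35.8 ± 24.5 CPM in members, and was below the count filter, so it was not tested.

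LEF1 was at 431, 314, 328 and 139 CPM in the GZMK- cells against 190.2, 132, 84.5 and 127 CPM in members (log2 fold change -1.25, SE 0.17, adjusted p = 4.8e-06). TCF7 was at 460.0, 461, 325 and 479 CPM against 222, 229, 203 and 188 CPM (log2 fold change -0.98, adjusted p = 2.3e-07). TCF7 was higher in the GZMK- cells of each dog without overlap, whereas LEF1 overlapped through dog 4 and was not called by limma-voom. CCR7 did not pass the test (-0.42, adjusted p = 0.16), nor did CTLA4 (-0.10) and CD40LG (0.32). Of 12 memory genes, CD28, IL2RB, ICOS, CD27, ZFP36L2 and GPR183 were higher and none was lower (median 0.31). CD28 was at 49.6, 71.7, 91.3 and 38.9 CPM in the GZMK- cells (log2 fold change 0.87, SE 0.18, adjusted p = 0.0030), a call that neither the fit without the block nor limma-voom made. ICOS was at 38.6, 65.5, 75.9 and 59.7 CPM (log2 fold change 0.74). In CD28 and ICOS all member sums were above all sums of the GZMK- cells.

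CCL4 was higher in members than in the GZMK- cells (171, 80.2, 24.3 and 148 CPM in the latter, log2 fold change 1.59) and CCL5 lower (2483, 894, 179.6 and 1479 CPM, log2 fold change -1.23), and neither limma-voom nor the fit without the block called either gene. In dog 3 CCL5 was higher in members (273 CPM), so the classes overlapped. Of 15 early activation genes, DUSP2, NR4A1, TNFAIP3, ZFP36 and IER2 were higher. The largest further differences were PLXNC1 (53.2 against 9.40 CPM, log2 fold change 2.09) and CORO6 (26.8 against 8.01 CPM, 1.91), which were higher, and GCSAM (-4.12), FCRL5 (-3.58), RFLNB (-3.24), RGS10 (29.8 against 186 CPM, -3.14), FAM241A (-2.12) and SLCO3A1 (5.75 against 28.7 CPM, -2.12), which were lower. GCSAM and FCRL5 rested on 3 UMIs each in members, overlapped between the classes and were not called by limma-voom, and FCRL5 was not called without the replicate block either.

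The GZMK+ IL7R- GZMB- cells differ in the gate only by IL7R. They had a lower depth (median 3349 UMIs against 4515), and in cells of 2000 to 6000 UMIs of both classes 174 genes were called in place of 304. Members had more CD28, CD40LG and CD52 than these cells and less FCER1G, GZMA and CCL4. Of 4419 genes, 158 (3.58%) were higher and 146 (3.30%) lower, 304 in all (6.88%), and 139 without the replicate block, 187 without dog 2 and 180 without dog 4. CD40LG was at 0, 3.56, 0 and 7.70 CPM in the IL7R- cells (log2 fold change 3.60, SE 0.54, adjusted p = 2.9e-07), and CD52 at 0, 46.3, 25.1 and 20.5 CPM (log2 fold change 2.44). CD28 was at 67.3, 49.9, 46.6 and 25.7 CPM (log2 fold change 1.61, SE 0.23, adjusted p = 1.2e-07). In none of these 3 genes did the classes overlap. CD40LG was found in only 3 of the 298 IL7R- cells. Dog 1 had 20 IL7R- cells, so its zeros for CD40LG and CD52 say little. GALNT17 (2.21), KRT18 (2.13), FAM114A1 (2.10) and PHACTR2 (2.03) were also higher on the log2 scale.

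FCER1G was at 700.0, 851, 578 and 822 CPM in the IL7R- cells against 95.1, 109.9, 50.9 and 157 CPM in members (log2 fold change -2.87, SE 0.13, adjusted p = 2.4e-31). GZMA was at 53.8, 189, 139.9 and 249 CPM there (log2 fold change -4.81), ITGAM at 135, 114, 176 and 426 CPM (log2 fold change -3.69) and CCL4 at 2113, 1161, 940.2 and 2336 CPM (log2 fold change -2.51). All sums of the IL7R- cells lay above all member sums in FCER1G, GZMA, ITGAM and CCL4. CD160, an inhibitory receptor of killer cells, was lower by 2.24 on the log2 scale (121, 345, 194 and 313 CPM in the IL7R- cells). EOMES was lower in members than in these cells (80.8, 99.7, 78.9 and 87.3 CPM, log2 fold change -0.88, adjusted p = 0.0098). By group, 6 of 9 cytotoxic genes were lower and 1 higher (median -1.20), 7 of 11 killer receptors lower and 1 higher (median -1.31), and 6 of 12 costimulatory genes higher and 1 lower. Of the 9 naive genes, CCR7, LEF1, TCF7 and ID3 were higher and 1 was lower (median 0.32).

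**Figure D2:**
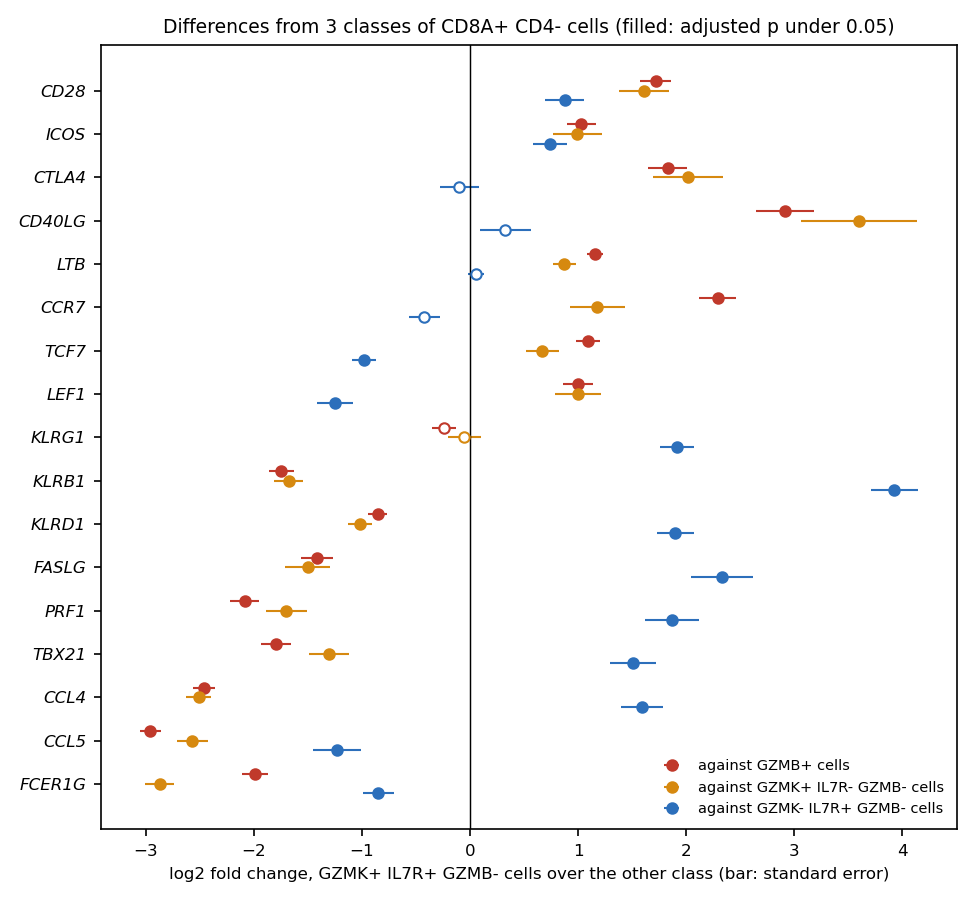
Log2 fold change of 17 genes in the gated members over GZMB+ cells, over GZMK+ IL7R- GZMB- cells and over GZMK- IL7R+ GZMB- cells, with bars for 1 standard error of the edgeR fit (4 dogs) and filled points for an adjusted p under 0.05. TCF7 and LEF1 are higher than in the first and second class and lower than in the third, while KLRB1, KLRD1, FASLG, PRF1, TBX21 and CCL4 are lower than in the first and second and higher than in the third.

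The same 3 conditions on GZMK, IL7R and GZMB, put on CD4+ CD8A- cells, gave 811 cells. Their levels are set beside those of the members as a description, with no test. CD28 was at 131 ± 14.1 CPM in the CD4+ cells (143 ± 53.6 in members), CTLA4 at 118 ± 19.9 CPM (83.1 ± 20.9 in members), ICOS at 158 ± 33.3 CPM (111 ± 13.6 in members) and LTB at 1720 ± 225 CPM (1696 ± 402 in members). KLRB1 was at 12.3 CPM in the CD4+ cells (137 in members), KLRD1 at 69.8 CPM (388 in members) and CCL5 at 49.8 CPM (411 in members). KRT18 was at 105 ± 5.36 CPM in the CD4+ cells and 107 ± 46.5 CPM in members.

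T cell receptors were not used by the gate. A single productive TRB was found in 352 of 461 members (76.4%; 10, 82, 198 and 62 cells of dogs 1 to 4). Cells of a dog with the same TRB V gene, J gene and junction were taken as a clone, and a clone of 2 or more cells as expanded. Expanded clones held 3 of 10, 35 of 82, 135 of 198 and 32 of 62 members, that is 30.0%, 42.7%, 68.2% and 51.6%. In the other CD8A+ CD4- cells the shares were 54.3%, 57.1%, 74.1% and 81.1%. The members were less often expanded in 4 of 4 dogs, by a mean of -18.5 percentage points (48.1% ± 16.0 against 66.6% ± 13.0). The exact paired permutation test, two-sided, gave p = 0.13, the smallest that 4 dogs allow, so the difference could not pass the threshold. By class, GZMK+ IL7R+ GZMB+ cells were expanded to 74.7% ± 7.75 and GZMK- IL7R+ GZMB- cells to 43.9% ± 17.5.

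**Figure D3:**
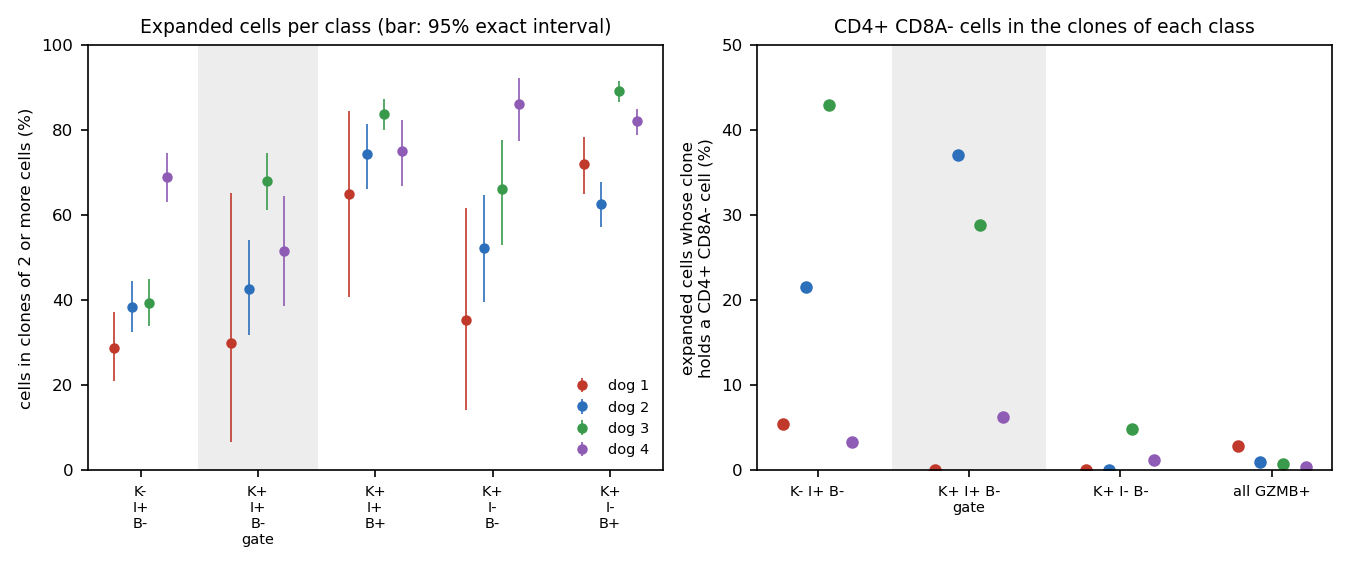
Left, share of cells in clones of 2 or more cells (%) by class and dog, with exact 95% intervals; right, share of expanded cells (%) whose clone also holds a CD4+ CD8A- cell. K, I and B stand for GZMK, IL7R and GZMB, and the gated members are shaded; in the left panel members lie at 30.0, 42.7, 68.2 and 51.6%, and in the right panel members of dogs 2 and 3 reach 37.1 and 28.9% against 1.003 and 0.791% for GZMB+ cells.

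The members belonged to 256 clones, of which 147 were a single cell and 109 were expanded. Of the 109, 86 (78.9%) also held CD8A+ CD4- cells of another class, and 65 (59.6%; exact 95% interval 49.8 to 68.9%) held GZMB+ cells. GZMK- IL7R+ GZMB- cells occurred in 25 (22.9%) and GZMK+ IL7R- GZMB- cells in 23 (21.1%), while 4 clones (3.67%) held members only. These shares are descriptions, since the number of classes found in a clone depends on its size. In 37 clones there were 2 or more members. The junction sequences of the 3 GZMB+ containing clones with the most members and of 2 large clones with few follow, as deposited, 5' to 3'. The first and last codon (the conserved cysteine and phenylalanine) are in lower case. All bases between them are in capitals, and those encoded by the V and J genes were not marked off. The sequences are shown because they mark cells of 1 ancestry on both sides of the gate.
Dog 3, TRBV16 TRBJ2-5, 16 cells, 11 members and 4 GZMB+ cells: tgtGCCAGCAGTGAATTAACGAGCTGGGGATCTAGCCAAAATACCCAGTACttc
Its alpha chain, TRAV43-1 TRAJ27: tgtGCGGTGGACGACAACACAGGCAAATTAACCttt
Dog 3, TRBV28 TRBJ1-2, 11 cells, 9 members and 2 GZMB+ cells: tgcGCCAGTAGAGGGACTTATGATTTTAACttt
Its alpha chain, TRAV9-5 TRAJ4: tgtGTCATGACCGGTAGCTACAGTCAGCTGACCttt
Dog 3, TRBV28 TRBJ1-6, 125 cells, 10 members and 108 GZMB+ cells: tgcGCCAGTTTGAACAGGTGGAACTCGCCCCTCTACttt
Dog 3, TRBV5-2 TRBJ1-2, 148 cells, 3 members and 140 GZMB+ cells: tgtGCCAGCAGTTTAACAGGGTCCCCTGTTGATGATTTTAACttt
Dog 2, TRBV25 TRBJ2-5, 63 cells, 4 members and 55 GZMB+ cells: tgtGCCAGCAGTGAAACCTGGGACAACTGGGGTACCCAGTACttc

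In the first of these clones all 15 cells with 1 alpha chain carried the chain shown, and in the second all 9 did. The TRBV16 clone of 16 cells was mostly inside the gate, whereas the TRBV28 clone of 125 cells and the TRBV5-2 clone of 148 cells were mostly GZMB+ with a few members. The first 4 of these beta chains came from dog 3, the dog with the most members.

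Part of the members shared their clone with CD4+ CD8A- cells. This was so for 0 of 3, 37.1%, 28.9% and 6.25% of the expanded members of dogs 1 to 4, in all 54 of 205 cells (26.3%). Among expanded GZMB+ cells it was 2.86%, 1.003%, 0.791% and 0.349% (22 of 2515, 0.875%), and among GZMK+ IL7R- GZMB- cells 3 of 162 (1.85%). GZMK- IL7R+ GZMB- cells lay in between or above, at 5.41%, 21.6%, 43.0% and 3.31%. The difference between members and GZMB+ cells was thus large in dogs 2 and 3, where 52 of the 54 cells were found, and it was not tested. Clones with more CD4+ CD8A- than CD8A+ CD4- cells held 15 of the 205 expanded members (7.32%) and 7 of the 2515 GZMB+ cells (0.278%). Next, 4 clones with members and CD4+ CD8A- cells but no GZMB+ cell are shown in the same form.
Dog 3, TRBV16 TRBJ1-1, 46 cells, 8 members, 9 CD4+ CD8A- and 24 CD4+ CD8A+ cells: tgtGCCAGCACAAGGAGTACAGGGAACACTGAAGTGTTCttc
Its alpha chain, TRAV43-4 TRAJ28: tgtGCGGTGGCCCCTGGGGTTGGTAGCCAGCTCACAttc
Dog 2, TRBV7 TRBJ2-3, 41 cells, 3 members, 20 CD4+ CD8A- and 2 CD4+ CD8A+ cells: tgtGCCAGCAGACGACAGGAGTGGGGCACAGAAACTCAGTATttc
Its alpha chain, TRAV21 TRAJ40: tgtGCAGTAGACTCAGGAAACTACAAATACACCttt
Dog 2, TRBV26 TRBJ1-6, 36 cells, 4 members, 12 CD4+ CD8A- and 3 CD4+ CD8A+ cells: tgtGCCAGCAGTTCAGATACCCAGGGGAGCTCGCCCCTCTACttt
Dog 3, TRBV16 TRBJ1-3, 34 cells, 9 members, 1 CD4+ CD8A- cell: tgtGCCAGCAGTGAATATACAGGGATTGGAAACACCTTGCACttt

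None of these 4 clones held a GZMB+ CD8A+ CD4- cell. The TRBV16 TRBJ1-3 clone had 16 CD8A+ CD4- cells among its 34, of which 7 were GZMK- IL7R+ GZMB-, and 17 cells with neither transcript. The TRBV16 TRBJ1-1 clone held as many CD4+ CD8A- as CD8A+ CD4- cells (9 of each). In the TRBV16 TRBJ1-1 clone the alpha chain shown was found in 43 of 43 cells with 1 alpha chain, and in the TRBV7 clone in 34 of 34. The main alpha chain of the TRBV26 clone was found in 35 of 35 such cells. That of the TRBV16 TRBJ1-3 clone was found in only 15 of 21, so a single ancestry is less certain for it.

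Members of clones with a CD4+ CD8A- cell (54 cells) also differed from the other expanded members (151 cells) and from members in clones of 1 cell (147 cells) in their transcripts. This split was made after seeing the data and is a description, with no test. CCR9 was at 258 and 290.5 CPM in the first set in dogs 2 and 3, at 61.0 and 38.4 CPM in the second and at 5.54 and 10.5 CPM in the third. Pooled over dogs, CD52 was at 398, 64.9 and 61.0 CPM in the same order, and CD40LG at 94.5, 18.6 and 32.9 CPM. In dogs 2 and 3 CCR9, CD52 and CD40LG were thus highest in members whose clones also held CD4+ cells. The pooled values rest mainly on dog 3 (39 of the 54 cells), and the 2 such members of dog 4 differed, with CCR9 and CD52 at 0 against 109 and 117 CPM in the other expanded members of that dog. KLRD1 was at 199, 668 and 495 CPM, CD160 at 3.37, 105 and 14.1 CPM and LEF1 at 6.75, 104 and 147 CPM, each lowest in the first set when pooled, though in none of the 3 genes in dog 4, where LEF1 was at 76.2 CPM against 41.9 CPM in the other expanded members. GZMK was at 513, 1716 and 2050.5 CPM and CD8A at 675, 1330 and 1312 CPM, so the first set also lay low in genes of the gate. Whether cells with missed CD4 transcripts contribute to this set was not tested.

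**Figure D4:**
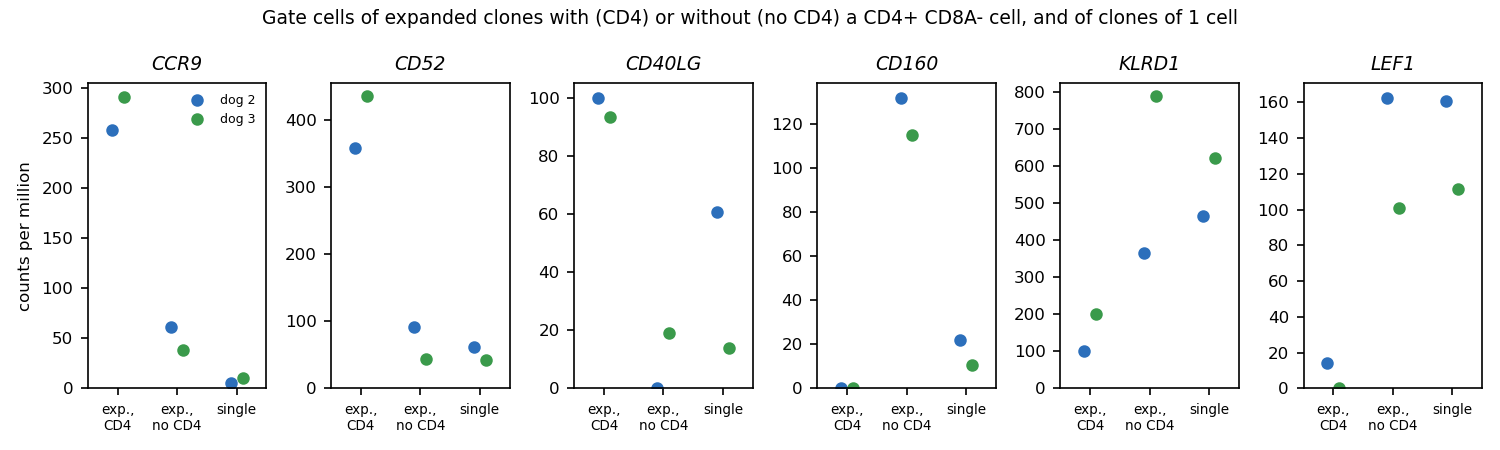
Level in CPM of 6 genes in gated members of dogs 2 and 3, split into expanded clones with a CD4+ CD8A- cell, expanded clones without one and clones of 1 cell; each point is 1 dog. CCR9 is at 258 and 290.5 CPM in the first set and at most 61.0 CPM elsewhere, and LEF1 and CD160 are lowest in the first set.

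Within the gate, cells of expanded clones were compared with cells in clones of 1 cell in dogs 2, 3 and 4 (n = 3), since dog 1 had too few. CCR9 and the killer cell receptor CD160 were higher in expanded cells, and the integrin chain ITGB1, CCR7, CD84 and LEF1 were lower. Of 2683 genes, 15 were higher and 15 lower (1.12% in all), and 2 passed without the replicate block. CCR9 was at 143, 124 and 98.1 CPM in expanded and at 5.54, 10.5 and 0 CPM in non-expanded cells (log2 fold change 4.10, SE 0.46, adjusted p = 6.7e-14). CD160 was at 77.3, 76.2 and 60.4 CPM against 22.1, 10.5 and 7.17 CPM (log2 fold change 2.42), and IL12RB2, a chain of the interleukin 12 receptor, at 95.2, 125 and 128 CPM against 38.8, 6.98 and 78.9 CPM (log2 fold change 1.84). In none of CCR9, CD160 and IL12RB2 did the sets overlap. LEF1 was at 101, 66.7 and 45.3 CPM in expanded and 161, 112 and 208 CPM in non-expanded cells (log2 fold change -1.03), and ITGB1, with the lowest log2 fold change of the comparison's named genes, was at a mean of 159 against 302 CPM (-1.18). CCR7 (-1.12), CD84 (-1.06), RGS1 (-1.03), CD27 (-0.86), MAP3K1 (-0.79), MYC (-0.71), PDE4B (-0.68), CDADC1 (-0.58), BTG2 (-0.52) and LTB (-0.49) were lower too, and APOBR (1.59), PHACTR2 (1.10), LTA4H (0.93), CCND2 (0.79), KLRG1 (0.76), BST2 (0.62) and LGALS1 (0.52) were higher. The number of calls depended on the dogs and the tool. Without dog 2, with 2 dogs left, edgeR made none (176 genes had an unadjusted p under 0.05) and without dog 3 it made 15, while the log2 fold changes without dog 2 were 3.92 for CCR9 and 2.83 for CD160. DESeq2 made none (278 genes had an unadjusted p under 0.05 by edgeR) and limma-voom made 40, of which 27 were among the 30. Without the clones that held a CD4+ CD8A- cell 8 genes were called. CD52 (1.44) had a log2 fold change of 0.21 without those clones and was then not called. Pooled over dogs, LEF1 was at 6.75 CPM in members of those clones, 104 in other expanded members and 147 in non-expanded members. CCR7 was at 23.6, 97.4 and 133 CPM in the same order, so part of both differences came from those clones.

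The V and J genes of members were tested against those of the other CD8A+ CD4- cells. None of 73 genes passed the exact paired permutation test by cells or by clones, and with 4 dogs the smallest p is 0.13, so none could. At that p were 11 genes by cells and 9 by clones. TRBV3-1 was an example, used by 22.2%, 5.80%, 6.45% and 11.1% of member clones and by 3.70%, 4.79%, 3.73% and 5.58% of the other clones. The pair of TRAV9-11 and TRAJ28 was found in 0%, 11.1%, 8.05% and 2.04% of members and in 30.9%, 17.4%, 15.6% and 8.07% of the other cells, lower in each dog when counted by cells. Counted by clones, in which a large clone counts once, the mean difference of TRAV9-11 was -2.21 percentage points in place of -11.0 by cells, and TRAJ28 was higher in the member clones of dog 3 (18.6% against 17.5%). The TRB junction had a median length of 45 nucleotides in both.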

How the data were processed

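Unnormalized UMI counts of each gene in each called cell were deposited, which the authors had made with Cell Ranger 5.0.1 from reads mapped to CanFam 3.1, along with productive TRA and TRB rearrangements of each dog (V and J gene, junction, UMIs). Which V and J reference they used is not known here. Cryopreserved cells of all dogs had been thawed and run together. Matrices have 20257 genes, and since the list deposited for dog 1 has 27980 lines, genes of all 4 matrices were named from the list of dog 2.

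Quality control kept 31909 of 33125 barcodes, those of 500 to 20000 UMIs whose share from 13 mitochondrial genes was 10% or less. No doublet caller was run. The sort excluded doublets, and cells with more than 1 productive TRB were left out as an alternative. Counts were summed per dog and class, and tested with edgeR 4.0.16 (R 4.3.3; quasi-likelihood, TMM, filterByExpr, dog as a block, Benjamini-Hochberg over all genes tested, threshold 0.05). The dogs' numbers pair the sums because both sums of a dog come from 1 animal and 1 library. The 5 gate genes counted in library sizes only. The estimated spread was pooled over genes almost fully, which makes the fitted standard errors small. DESeq2 1.42.0, RLE size factors, no filter, other cell filters, leaving out each dog and, added after seeing the data, limma-voom (limma 3.58.1), CD8A of at least 3 UMIs, and 2 exclusions of cells by their clones were alternatives. CPM values are scaled to 1000000 UMIs of the sum, and means have the SD over dogs. Depth limits and binomial intervals cover counting error only.

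Genes were named by a fixed rule. Per comparison these were up to 12 of the largest log2 fold changes each way, or up to 6 in the comparisons with the subclasses. Such genes had a symbol, an adjusted p under 0.05, the same sign in all dogs and at least 20 CPM in the higher class. List members were named by counts, with values for the most abundant. The members, the gene lists and the tests were chosen with earlier results of these data known. The study's cluster labels were not used here, and expression was not compared across dogs by age or sex. The genes KLF2, GZMM, GZMH, NKG7, GNLY, XCL1, CD8B, CD247 and TYROBP were not analysed here. The scripts were tested on simulated counts with known changes. Values of some genes of the lists are not reported here.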

Additional observations from a re-analysis of the deposited data

Results flagged for a closer look

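For 172 groups of 4 dogs the highest or lowest value was compared with the rest by Dixon's ratio at its 95% critical value, and 11 (6.40%) held a value far from the other dogs, where chance gives about 1 in 20. None of these values was weighed further.

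Among members, dog 1, with 14 cells, stood apart in LTB (2298 CPM against 1477 to 1505 CPM in the other dogs), GCSAM (15.8 CPM against 0 to 2.35 CPM), ZFP36 (523 CPM against 656 to 665 CPM) and CCR9 (0 CPM against 72.8 to 80.8 CPM). Dog 2 was the only one with TOP2A counts in members (3.66 CPM). The GCSAM value of dog 1 rests on 1 UMI and lies under the limit of 47.5 CPM of that dog. The TOP2A level of dog 2 lies under the limits of dogs 1 and 4 (47.5 and 7.05 CPM). Among the other CD8A+ CD4- cells, dog 4 stood apart in GZMA (400.2 CPM against 176 to 204 CPM), CCR7 (18.9 CPM against 64.0 to 66.4 CPM), TRIM22 (165 CPM against 282 to 304 CPM) and TOP2A (11.0 CPM against 7.00 to 7.54 CPM). Dog 3 stood apart in ZFP36L2 (1866 CPM against 809.8 to 951 CPM) and CTSW (310.4 CPM against 409.7 to 419 CPM).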

How the results depend on the processing

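Numbers of genes called moved more than their directions. Against all other CD8A+ CD4- cells (445 genes), 72 were called without the replicate block, that is without pairing the sums of a dog, 157 by DESeq2, 161 by limma-voom, 268 in cells of 2000 to 6000 UMIs and 225 to 338 when each dog was left out. Against GZMB+ cells (826) the same settings gave 267 without the replicate block, 358 by DESeq2, 482 by limma-voom and 522 to 761 without a dog. Against GZMK- IL7R+ GZMB- cells (162) they gave 65, 66, 98 and 99 to 156. Against GZMK+ IL7R- GZMB- cells (304) they gave 139 without the replicate block, 117 by DESeq2, 352 by limma-voom, 174 in cells of 2000 to 6000 UMIs and 180 to 351 without a dog. For expanded against non-expanded members (30) they gave 2 without the replicate block, 0 by DESeq2, 40 by limma-voom, 8 without clones holding a CD4+ CD8A- cell and 0 to 39 without a dog. Leaving out dogs 3 or 4 moved the first and second count by over 1.5 times (240 and 225, 522 and 545), dog 2 the third (99), dogs 2 or 3 the fifth (0 and 15), and dogs 2 or 4 the fourth (187 and 180).

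Over 187 results for named genes and all alternatives, 2635 values were computed, of which 380 were no longer past the threshold, 7 newly passed it and 9 changed sign, all 9 for genes that had not passed the test. LEF1 against all other cells (-0.12) was at 0.22 with CD8A of at least 3 UMIs, at 0.024 without clones holding a CD4+ CD8A- cell and at -0.38 to 0.15 without a dog. TCF7 and KLRK1 there ranged from -0.0605 to 0.20 and from -0.12 to 0.20 without a dog. CD40LG against GZMK- IL7R+ GZMB- cells (0.32) was at -0.14 in cells of 2000 to 6000 UMIs and at -0.10 to 0.85 without a dog. KLRG1 against GZMK+ IL7R- GZMB- cells (-0.05) was at 0.11 in cells of 2000 to 6000 UMIs and at 0.046 with CD8A of at least 3 UMIs. The causes were not tested. The share of expanded members differed by -14.8 to -24.8 percentage points under every alternative run. Depth limits above all dog 1, in whose members 3 counts are 47.5 CPM.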
